A study of Mus musculus with 6 samples.

Results

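The phagocyte NADPH oxidase and the enzymes that clear its products are described here in mouse bone marrow-derived macrophages (BMDM), by 9 genes picked by symbol from the 55453 rows of the counts table. Of these, 5 encode oxidase subunits or its GTPase (Cybb, Cyba, Ncf1, Ncf4 and Rac2) and 4 encode enzymes that remove superoxide or peroxide (Sod1, Sod2, Cat and Gpx1). They were picked by function, with earlier results of these data known, and all 9 were among the 13680 genes that passed the filter on low counts. The study asked how loss of PP2Ac, the catalytic subunit of the phosphatase PP2A encoded by Ppp2ca, alters the response of macrophages to the STING agonist cGAMP. RNA-Seq was performed on 3 PP2Ac KO and 3 WT libraries, all C57BL/6.

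PP2Ac KO cells came from LysMcre PP2Ac fl/fl mice, in which the Lyz2 promoter drives Cre in the myeloid lineage. WT cells came from C57BL/6 mice of a commercial supplier, so the groups also differ in Cre, in the floxed allele and in the source of the mice, and these cannot be told apart from the loss of PP2Ac. The study's text states that both groups were treated with cGAMP, while the labels name no treatment, and there are no untreated libraries to set beside them. The study's methods describe its cell experiments in general as biological replicates, but the labels do not say whether the libraries of a group came from separate mice or cultures, so p-values measure the spread between these libraries, which may be technical. Mice of both sexes were used across the study, within an age range of weeks that its methods give for all mice together, and the labels give neither sex nor age per library.

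The oxidase is an electron pump. Cybb (gp91phox, the NOX2 chain) and Cyba (p22phox) form a heterodimer in the membrane, and cytosolic subunits that include Ncf1 (p47phox) and Ncf4 (p40phox) wait in the cytosol until phosphorylation and the GTPase Rac bring them to it. The assembled enzyme moves electrons from NADPH to oxygen and makes superoxide, which macrophages release into phagosomes. Superoxide dismutases turn superoxide into hydrogen peroxide, Sod1 in the cytosol and Sod2 in mitochondria, and catalase (Cat) and glutathione peroxidase 1 (Gpx1) turn peroxide into water.

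Library totals ran from 35257156 to 47390899 counts. Ppp2ca had 33 to 47 counts in the KO libraries and 8279 to 10654 in the WT libraries, which matches the labels. The macrophage markers were all detected, with a summed level of 8623 to 8733 CPM in KO and 7279 to 7840 CPM in WT. CPM are counts relative to the library total, scaled by TMM in edgeR. Of the 8 macrophage markers, 2 were called higher, against 18.1% of all genes. Lyz2, whose promoter drives the Cre, stood at 260 to 421 counts, which is low for a gene that macrophages transcribe strongly, so its count may not reflect its level. Of 12 neutrophil markers, Ly6g and Retnlg had no read and 9 stayed at or below 108 counts, while Csf3r was called higher (128 CPM against 85.6). All 5 tested fibroblast markers were called lower, against 19.0% of all genes. Their summed level was 24.4 to 35.8 CPM in KO and 79.2 to 122 CPM in WT. The lymphocyte list summed to at most 1.46 CPM in any library, the dendritic cell list to at most 1.82 CPM and the mast cell and erythroid list to at most 0.259 CPM. The part of the fibroblast difference in the results below was not tested.

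Across all genes, 2470 of 13680 were called higher in KO (18.1%) and 2604 lower (19.0%), at an adjusted p under 0.05 in edgeR's quasi-likelihood test. In 50.9% of genes the KO and WT libraries did not overlap. Taken over all tested genes, the median KO over WT difference on the log2 scale was -0.024 with TMM scaling and -0.24 with library totals alone, and the TMM factors were 0.910 to 0.937 in KO and 1.05 to 1.10 in WT. Log2 fold changes below are on the TMM scale unless another scaling is named, and library totals alone would lower each by about the difference of these medians. Among the called genes, 48.7% were higher with TMM, against 38.4% with upper-quartile scaling and 19.7% with library totals alone.

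The sequences just before the starts of the 3 members called higher are shown because these genes moved the same way, so that their letters can be set beside each other. They come from RefSeq (GRCm38.p6), which held a window of 250 bases before to 50 after the start for 7 of the 9 members; Ncf4 and Rac2 had no entry. Each is printed 5′ to 3′ on the gene's strand, lies in no annotated exon and ends before the RefSeq start. Capitals mark every match, on either strand, to 6 motifs. These were TTCNNNGAA (STAT type), GAAANNGAA (IRF type), GGNNTTTCC (NF-kB type), TGANTCA (AP-1 type), TGACNNNGC (NRF2 type) and GAGGAAGT (PU.1 type). The stretch of Cybb is chrX:9469325-9469494 (minus strand), which lies in an intron of the longest GENCODE gene model. That of Ncf1 is chr5:134229626-134229795 (minus strand). That of Sod2 is chr17:13007647-13007816 (plus strand), which lies inside the GENCODE gene, downstream of its annotated start.
Cybb: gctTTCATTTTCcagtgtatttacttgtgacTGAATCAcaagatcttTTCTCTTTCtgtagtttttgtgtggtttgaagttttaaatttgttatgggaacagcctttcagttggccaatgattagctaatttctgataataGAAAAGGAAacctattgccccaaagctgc
Ncf1: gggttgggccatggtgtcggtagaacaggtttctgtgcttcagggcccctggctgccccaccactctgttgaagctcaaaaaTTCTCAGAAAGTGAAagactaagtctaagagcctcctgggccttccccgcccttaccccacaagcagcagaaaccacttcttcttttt
Sod2: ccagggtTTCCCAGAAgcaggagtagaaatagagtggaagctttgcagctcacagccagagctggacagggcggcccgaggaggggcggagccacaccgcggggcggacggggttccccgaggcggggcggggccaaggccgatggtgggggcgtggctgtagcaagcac
Cybb held 3 IRF-type matches and 1 AP-1-type match, Ncf1 held 1 STAT-type and 1 IRF-type match that share letters, and Sod2 held 1 STAT-type match. Among all 32851 promoter windows of the same length, 8.56% held an IRF-type match, 8.30% a STAT-type match and 7.81% an AP-1-type match. These shares are not matched for base composition. G and C made up 35.3% of the Cybb window, 54% of the Ncf1 window and 64.3% of the Sod2 window. Sod1, which was not called, held 1 NRF2-type match (12.4% of all windows). The windows of Cyba, Cat and Gpx1 held none of the 6. In the Gpx1 window, 177 of the 250 bases before the RefSeq start lie in an annotated exon. None of the 7 windows searched held an NF-kB-type (5.82% of all windows) or PU.1-type match (3.20%). A match is a description of letters and not a measured binding site.

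In the KO libraries, transcripts of 2 oxidase members (Cybb and Ncf1) and 1 removal member (Sod2) were higher than in WT, and those of 2 removal members (Cat and Gpx1) were lower. The remaining 4 members (Cyba, Ncf4, Rac2 and Sod1) had fold changes between 1.06 and 1.15 that did not pass the test. Thus 3 of 9 members were called higher, against 18.1% of all genes, and 2 of 9 lower, against 19.0%. The groups did not overlap for 7 of 9 members, against 50.9% of all genes. With the replicate number as a block, 6 members were called higher (24.4% of all genes under that fit) and 2 lower (26.4%), the additions being Cyba, Ncf4 and Rac2.

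**Figure D1:**
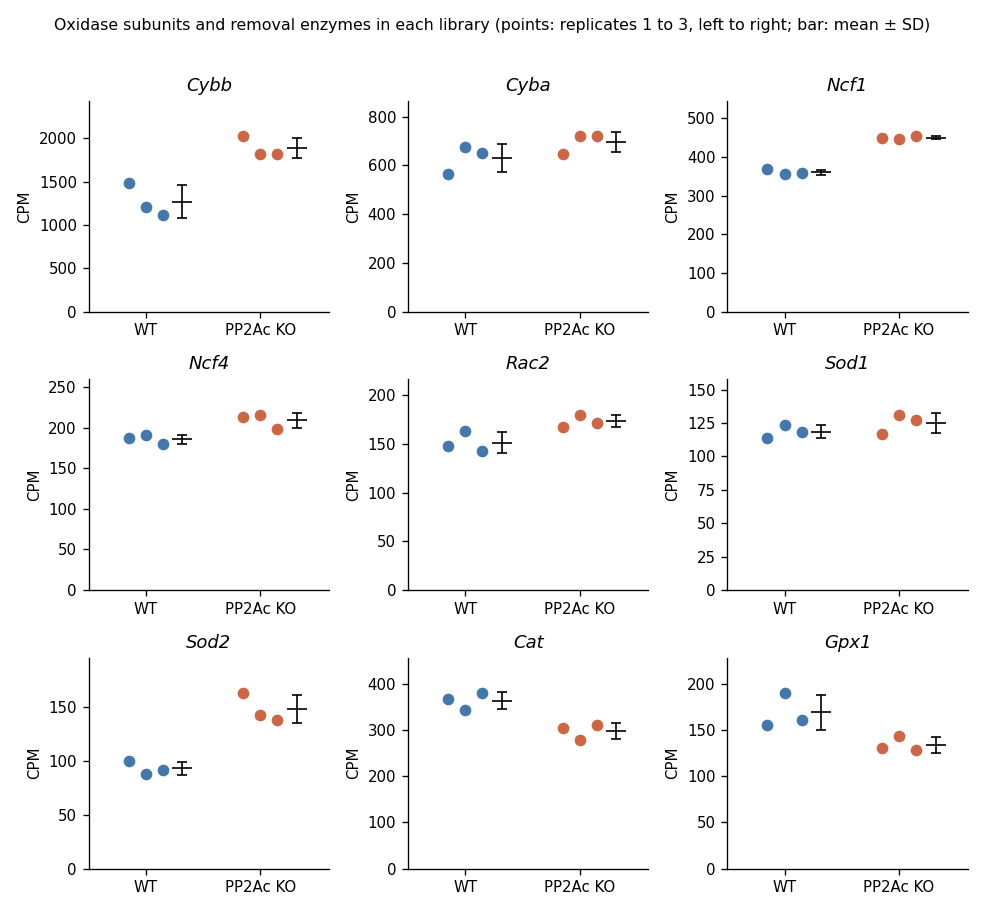
Level of each member in each library, in CPM after TMM scaling, on linear axes that start at 0; points are libraries and the bars beside them the mean ± SD of 3. The KO points of Cybb, Ncf1 and Sod2 all lie above the WT points and those of Cat and Gpx1 all lie below them, while the points of Cyba and Sod1 overlap.

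Cybb, an X-linked gene (chrX:9435252-9487771 in GRCm38, minus strand), is the chain that carries the electrons. It stood at 2026, 1818 and 1819 CPM in KO replicates 1, 2 and 3 and at 1480, 1209 and 1119 CPM in WT replicates 1, 2 and 3. Replicate 1 was the highest library in both groups, and the lowest KO library lay above the highest WT library. Cybb transcripts were 1.49-fold higher in KO (log2 fold change 0.57, SE 0.11, adjusted p = 0.00294 in edgeR). The means were 1888 ± 120 CPM in KO and 1269 ± 188 CPM in WT (SD, n = 3 each).

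Cyba encodes the partner chain, which stabilises gp91phox (chr8:122424776-122432930, minus strand). Its levels were 648, 720 and 720 CPM in KO and 564, 676 and 650 CPM in WT. Here replicate 1 was the lowest library of each group, and KO replicate 1 fell within the WT range. The log2 fold change was 0.14 (95% confidence interval -0.051 to 0.34), with an adjusted p of 0.225 in edgeR. Each KO library lay above the WT library of the same number, and with the replicate block the adjusted p was 0.0135 in edgeR.

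Ncf1, the organizer that carries the other cytosolic subunits to the membrane (chr5:134220053-134229625, minus strand), varied little between replicates. It stood at 448, 447 and 454 CPM in KO and at 368, 356 and 358 CPM in WT. The gap between the groups was many times the spread inside either. Ncf1 transcripts were 1.25-fold higher in KO (log2 fold change 0.32, SE 0.060, adjusted p = 0.00296 in edgeR). On library totals alone its log2 fold change was 0.10, with an adjusted p of 0.179 in edgeR. Relative to the median gene Ncf1 stood at 0.342 under both scalings, which was fixed in advance because scaling shifts all genes nearly alike. An exon of Gtf2ird2 overlaps Ncf1 on the opposite strand. Of the 50-base words in Ncf1 transcripts, 7.45% also occur, read on either strand, in transcripts of other genes, nearly all of Gtf2ird2.

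Ncf4 encodes p40phox, which binds a phagosomal lipid and sustains the enzyme (chr15:78244801-78262580, plus strand). Ncf4 had 213, 216 and 198 CPM in KO and 187, 191 and 180 CPM in WT. All KO libraries lay above all WT libraries, but the distance between the nearest ones was small. The log2 fold change was 0.17 (95% confidence interval 0.027 to 0.32, adjusted p = 0.0630 in edgeR), and it was called with the replicate block (adjusted p = 0.00466), with RLE scaling (0.0448) and with DESeq2 (0.0293).

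Rac2, the Rac GTPase particular to blood cells, lies on the same chromosome (chr15:78559167-78572783, minus strand). It had 168, 180 and 172 CPM in KO and 148, 163 and 143 CPM in WT. The libraries did not overlap, and replicate 2 was the highest of each group. The log2 fold change was 0.20 (95% confidence interval 0.037 to 0.36, adjusted p = 0.0554 in edgeR). It was called with the replicate block (adjusted p = 0.00270), with RLE scaling (0.0357), with DESeq2 (0.0215), with limma-voom (0.0498) and without WT replicate 2 (log2 fold change 0.26, adjusted p = 0.0378).

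On library totals alone the log2 fold changes of Cyba, Ncf4 and Rac2 turned to -0.073, -0.045 and -0.019. Relative to the median gene they stood at 0.17 for Cyba, 0.195 for Ncf4 and 0.22 for Rac2 under both scalings. A change of scaling shifts all genes nearly alike, so this sameness was fixed in advance and is no check on direction. The oxidase members as a list had a median log2 fold change of 0.20, beside -0.024 for all genes. The list of 8 macrophage markers had a median of 0.19, close to that of the oxidase members.

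**Figure D2:**
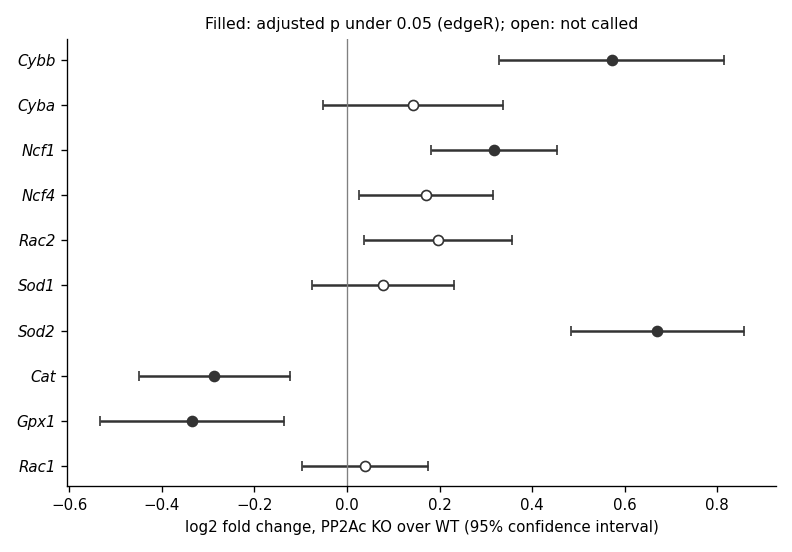
Log2 fold change of KO over WT for the 9 members and for Rac1, with 95% confidence intervals from edgeR; filled points passed an adjusted p of 0.05. Sod2 (0.67) and Cybb (0.57) lie farthest to the right, Gpx1 (-0.34) and Cat (-0.29) lie left of 0, and Rac1 lies near 0.

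Sod2, the manganese dismutase of mitochondria and a gene known to respond to inflammatory signals, had the largest fold change of the 9 (chr17:13006846-13040063, plus strand). It stood at 163, 143 and 138 CPM in KO and at 100, 87.6 and 91.8 CPM in WT. The lowest KO library was well above the highest WT library, and replicate 1 was again the highest of each group. Sod2 transcripts were 1.59-fold higher in KO (log2 fold change 0.67, SE 0.083, adjusted p = 3.60e-04 in edgeR). Of the 50-base words in its annotated transcripts, 21.0% also occur, read on either strand, in transcripts of other genes, mainly AC166110.4 and Rps6ka2. Reads from that part of Sod2 may thus have been counted elsewhere or left out.

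Sod1, the copper and zinc dismutase of the cytosol, did not follow Sod2 (chr16:90220754-90226329, plus strand). It had 117, 131 and 127 CPM in KO and 114, 123 and 118 CPM in WT. The groups overlapped, with KO replicate 1 inside the WT range. The log2 fold change was 0.078 (95% confidence interval -0.075 to 0.23, adjusted p = 0.405 in edgeR), and it was -0.14 on library totals alone.

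Cat, the peroxisomal catalase, was lower in KO (chr2:103453849-103485160, minus strand). Its levels were 303, 278 and 311 CPM in KO and 367, 343 and 380 CPM in WT. Every KO library lay below every WT library, and replicate 2 was the lowest of each group. Cat transcripts fell to 0.820 of the WT level (log2 fold change -0.29, SE 0.073, adjusted p = 0.0127 in edgeR). Without KO replicate 2 the log2 fold change was -0.24 and the adjusted p 0.0686.

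Gpx1, the selenoenzyme that reduces peroxide with glutathione, was lower as well (chr9:108338903-108340343, plus strand). It had 130, 144 and 128 CPM in KO and 156, 190 and 162 CPM in WT. The groups did not overlap, and replicate 2 was the highest of each. Gpx1 transcripts fell to 0.792 of the WT level (log2 fold change -0.34, SE 0.088, adjusted p = 0.0152 in edgeR). The call was lost without KO replicate 1 (adjusted p = 0.0528, log2 fold change -0.32), without KO replicate 3 (0.0598, -0.30) and without WT replicate 2 (0.0594, -0.24), each in edgeR. With the replicate block the adjusted p was 1.34e-04 for Cat and 8.99e-05 for Gpx1.

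Levels can be compared between genes only per length. Per kilobase of the longest principal transcript, Cyba was the highest member in both groups, at 935 ± 55.7 CPM per kb in KO and 847 ± 79.0 CPM per kb in WT (SD, n = 3). Cybb came next at 397 ± 25.3 CPM per kb in KO and 267 ± 39.6 in WT, and Sod2 was the lowest at 25.3 ± 2.27 in KO and 15.9 ± 1.10 in WT. Rac2 was next to lowest in both groups, at 57.1 ± 2.08 and 49.8 ± 3.54 CPM per kb. The middle of the order differed between the groups. In KO it ran Sod1 (195 CPM per kb), Ncf1 (165), Ncf4 (143), Gpx1 (125) and Cat (114), with no overlap between neighbours, whereas in WT it ran Sod1 (185), Gpx1 (158), Cat (139), Ncf1 (132) and Ncf4 (127). In WT the ranges of Sod1 and Gpx1 overlapped, as did those of Cat and Ncf1. Within each WT library, however, Sod1 lay above Gpx1 and Cat above Ncf1. These differences between genes were not tested. The order depends on the transcript length used. Over the union of all annotated exons, which is 3970 bases for Sod1 against 641 for its principal transcript, Sod1 came in the eighth place in both groups.

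**Figure D3:**
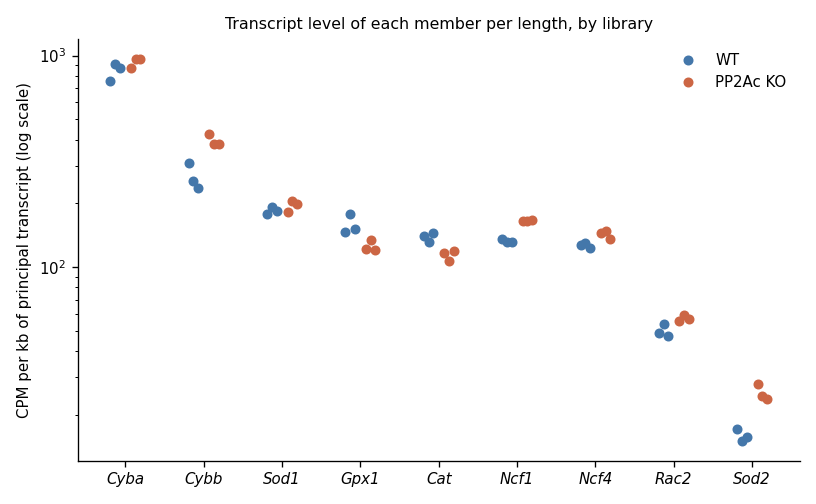
Level of each member per kilobase of its longest principal transcript, in CPM per kb on a log axis, ordered by the WT mean; each point is a library. Cyba and Cybb lie above the other members, Sod2 lies lowest, and the KO points of Cat and Gpx1 sit below their WT points.

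Ratios inside a library do not depend on scaling between libraries, so 4 pairs of members were compared in that way, as log2 ratios of counts per kilobase of exon union. With 3 libraries against 3, the exact permutation test cannot give a two-sided p below 0.1. The membrane pair Cybb to Cyba had log2 ratios of -0.84, -1.15 and -1.15 in KO and -1.09, -1.64 and -1.70 in WT. WT replicate 1 lay among the KO libraries. The difference was 0.43 (exact permutation p = 0.3, adjusted over 4 ratios 0.4) and stood between 0.32 and 0.63 when any 1 library was left out, so it was not shown to be larger than the spread between libraries. It was positive in 3 of 3 pairs of libraries with the same number, at 0.25, 0.50 and 0.55.

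The cytosolic pair Ncf1 to Ncf4 had log2 ratios of 0.21, 0.19 and 0.34 in KO and 0.12, 0.042 and 0.13 in WT. These did not overlap, with a difference of 0.15 (exact permutation p = 0.1, the smallest possible, adjusted 0.2). The dismutase pair Sod2 to Sod1 had log2 ratios of -0.85, -1.21 and -1.21 in KO and -1.52, -1.83 and -1.70 in WT. This was the widest separation of the 4, with a difference of 0.59 or 1.51-fold (exact permutation p = 0.1, the smallest possible, adjusted 0.2). The peroxide pair Cat to Gpx1 had log2 ratios of 0.36, 0.093 and 0.42 in KO and 0.37, -0.011 and 0.37 in WT. Replicate 2 was low in both groups, and the difference of 0.045 was smaller than the spread (exact permutation p = 0.7, adjusted 0.7). It turned to -0.020 without KO replicate 3 and to -0.084 without WT replicate 2.

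**Figure D4:**
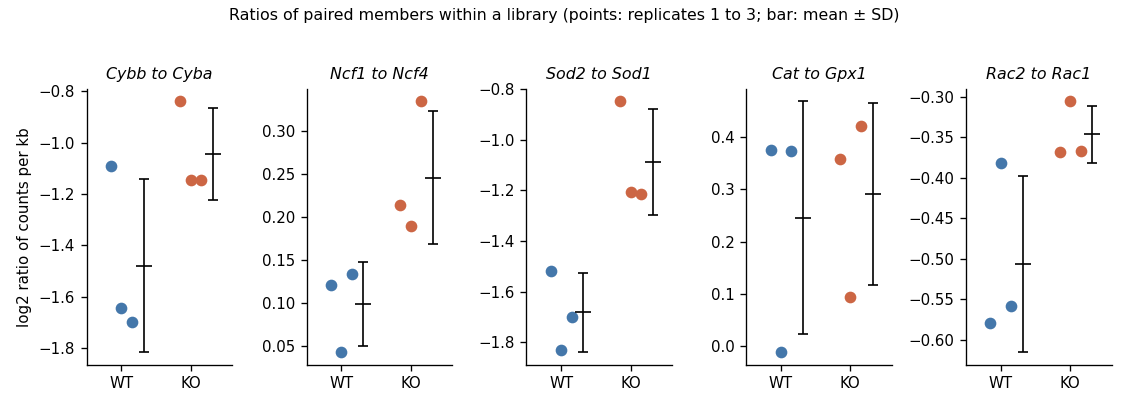
Log2 ratio of counts per kilobase of exon for 4 pairs of members and for Rac2 to Rac1, in each library, with the mean ± SD of 3 beside the points; each panel has its own axis. KO and WT points separate for Ncf1 to Ncf4 and Sod2 to Sod1, and they overlap for Cybb to Cyba and Cat to Gpx1.

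Of the other parts of the phagocyte oxidase, 0 of 5 were called higher (18.1% of all genes) and 1 lower (19.0%) in edgeR. At an unadjusted p under 0.05 the count of higher genes was 1 (Cybc1, a chaperone of the membrane pair), and it was 1 with DESeq2, 0 with limma-voom and 1 with the replicate block.

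Rac1, the GTPase found in all tissues, had 314, 323 and 321 CPM in KO and 319, 308 and 305 CPM in WT. The groups overlapped, with a log2 fold change of 0.039 (adjusted p = 0.653 in edgeR). The log2 fold change turned to -0.025 with upper-quartile scaling and to -0.18 with library totals alone. On library totals alone Rac1 was called lower (adjusted p = 0.0344 in edgeR). Daglb overlaps its exons on the opposite strand. Of the 50-base words of Rac1 transcripts, 50.3% occur in Daglb transcripts too, read on either strand. The strand setting of the counting is not given, so whether such reads entered the Rac1 count is not known. The ratio of Rac2 to Rac1 per kilobase was 0.775, 0.809 and 0.776 in KO and 0.670, 0.768 and 0.679 in WT, which did not overlap. Hvcn1, the proton channel that carries off the charge left by electron transfer, had 71.2, 72.0 and 75.1 CPM in KO and 87.7, 98.7 and 106 CPM in WT. All KO libraries lay below all WT libraries, and Hvcn1 fell by 0.42 on the log2 scale (SE 0.077, adjusted p = 0.00241 in edgeR).

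Of 9 other NOX and DUOX oxidases and organizers, 7 were too low to test, and Nox3, Duox2 and Noxa1 had no read in any library. A count of 0 allows up to 3 counts, or 0.0604 to 0.0909 CPM, by counting error alone. Nox1, a catalytic chain best known from the colon, was called higher from 32, 35 and 25 counts in KO and 10, 9 and 9 counts in WT (log2 fold change 1.92, SE 0.31, adjusted p = 0.00137 in edgeR). Its level did not exceed 1.06 CPM in any library. Noxo1, an organizer that partners Nox1, had 103, 72 and 86 counts in KO and 168, 116 and 120 counts in WT. Its KO libraries lay below its WT libraries in CPM, with a log2 fold change of -0.42 (SE 0.15, adjusted p = 0.0501 in edgeR). It was called lower with the replicate block (adjusted p = 0.0193), with upper-quartile scaling (0.0253), on library totals alone (0.00490), with no filter (0.0484) and with at least 10 counts in every library (0.0470).

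Of 13 signaling genes that switch the oxidase on or off, 5 were called higher (18.1% of all genes) and 0 lower (19.0%) in edgeR, with a median log2 fold change of 0.16. At an unadjusted p under 0.05 the count of lower genes was 1 (Syk), and it was 0 with DESeq2, 0 with limma-voom and 1 with the replicate block. The log2 fold changes of the 8 others ran from -0.19 to 0.22. Prkcd, a kinase that phosphorylates p47phox, had 331, 325 and 305 CPM in KO and 251, 244 and 242 CPM in WT. The KO libraries were all above the WT libraries (log2 fold change 0.38, SE 0.064, adjusted p = 0.00156 in edgeR). Vav1, an exchange factor for Rac, stood at 204 to 207 CPM in KO and 153 to 166 CPM in WT (log2 fold change 0.35, adjusted p = 0.00195). Pak1, a kinase that Rac switches on, stood at 42.2 to 42.9 CPM in KO and 31.1 to 37.2 CPM in WT (log2 fold change 0.34, adjusted p = 0.00644). Pla2g4a, the phospholipase that frees arachidonic acid, stood at 9.80 to 11.4 CPM in KO and 7.51 to 8.92 CPM in WT (log2 fold change 0.38, adjusted p = 0.0144), and its adjusted p was 0.0561 without KO replicate 1 and 0.0520 without KO replicate 2. Prex1, another Rac exchange factor, stood at 430 to 490 CPM in KO and 370 to 416 CPM in WT (log2 fold change 0.22, adjusted p = 0.0474). This last call was lost when KO replicate 1, 2 or 3 or WT replicate 2 or 3 was left out, with adjusted p from 0.0610 to 0.154, and with upper-quartile scaling (0.102) or at least 10 counts in every library (0.0517), all in edgeR. On library totals alone Vav1, Pak1, Pla2g4a and Prex1 were not called, with adjusted p from 0.0857 to 0.941.

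Of 8 transcription factors known to drive oxidase genes, 7 were called higher (18.1% of all genes) and 1 lower (19.0%) in edgeR, and the groups did not overlap for 8 of 8 (50.9% of all genes). The median log2 fold change was 0.56. Cebpb, a factor of inflammatory gene expression, had 425, 423 and 365 CPM in KO and 216, 260 and 242 CPM in WT (log2 fold change 0.76, SE 0.091, adjusted p = 3.16e-04). Elf1, an ETS factor, had 260, 238 and 225 CPM in KO and 179, 141 and 128 CPM in WT (log2 fold change 0.69, SE 0.12, adjusted p = 0.00175). Irf1 had 591, 549 and 572 CPM in KO and 397, 354 and 347 CPM in WT (log2 fold change 0.64, SE 0.075, adjusted p = 2.80e-04). Rela, Irf8 and Spi1 were also called higher. Cebpa, a factor of myeloid differentiation, went the other way, with 132, 154 and 170 CPM in KO and 233, 271 and 307 CPM in WT (log2 fold change -0.83, SE 0.12, adjusted p = 6.96e-04 in edgeR).

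**Figure D5:**
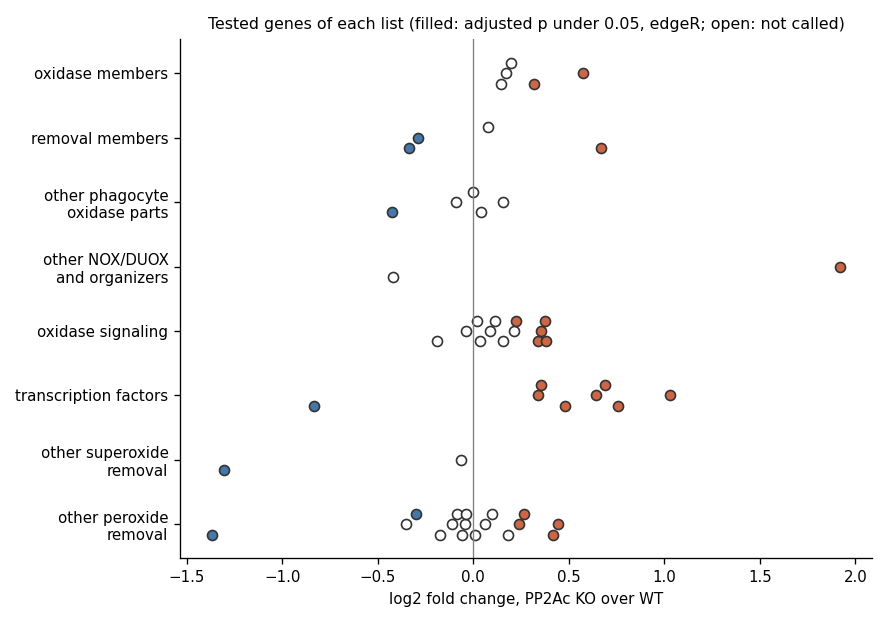
Log2 fold change of KO over WT for every tested gene of the member lists and the other pathway lists; filled points passed an adjusted p of 0.05 in edgeR, orange for higher and blue for lower. All 8 transcription factors are filled, 7 of them right of 0, while most peroxide-removal genes are open and close to 0.

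Beyond the members, superoxide removal held Sod3 and Ccs. Sod3, the secreted dismutase, had 3.77, 5.76 and 2.97 CPM in KO and 12.4, 10.7 and 7.25 CPM in WT. The groups did not overlap, and Sod3 fell by 1.30 on the log2 scale (SE 0.25, adjusted p = 0.00323 in edgeR). The fibroblast markers moved with it, from 79.2 to 122 CPM summed in WT to 24.4 to 35.8 CPM in KO, and their part in this result was not tested. Ccs, the copper chaperone of Sod1, did not pass the test.

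Of 18 other peroxide-removing genes, 17 were tested, 4 were called higher and 2 lower in edgeR, shares near those of all genes (18.1% and 19.0%), with a median log2 fold change of -0.040. Those called higher were Glrx, a glutaredoxin, at 51.1 to 55.0 CPM in KO and 37.2 to 41.0 CPM in WT (log2 fold change 0.44, adjusted p = 6.34e-04), Prdx5, Prdx6 and Txn1. Prdx5, a peroxiredoxin found in several compartments including mitochondria, had 369, 383 and 362 CPM in KO and 269, 297 and 267 CPM in WT (log2 fold change 0.42, adjusted p = 0.00143 in edgeR). Prdx6, a peroxiredoxin with a single active cysteine, was called at 0.27 (adjusted p = 0.0316 in edgeR), and the call was lost without KO replicate 1 or 2 or WT replicate 2 or 3, with adjusted p from 0.0712 to 0.109, with upper-quartile scaling (0.0675) and on library totals alone (0.567). Srxn1, which repairs overoxidised peroxiredoxins, had 170, 169 and 171 CPM in KO and 198, 208 and 220 CPM in WT (log2 fold change -0.30, adjusted p = 0.00576 in edgeR). Gpx8 rested on 6, 13 and 5 counts in KO and 27, 24 and 22 in WT (log2 fold change -1.37, adjusted p = 0.0252 in edgeR), and its adjusted p was 0.0992 without KO replicate 1, 0.0893 without KO replicate 3 and 0.0703 without WT replicate 2. The fibroblast markers named above moved the same way as Gpx8, and their part was not tested. Over all 55 other genes of the pathway, 47 were tested, of which 17 were called higher (18.1% of all genes) and 5 lower (19.0%). With the replicate block these counts were 22 (24.4% of all genes) and 8 (26.4%).

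The genes whose profile over the 6 libraries was nearest to that of Cybb, by the root mean square difference of centred log2 CPM, were Ythdf1 (0.0137), A630001G21Rik (0.0168) and Tox4 (0.0205). For Sod2 they were Stx16 (0.0237), Ppp2r5a (0.0244) and Tyk2 (0.0254). These are descriptions over the same 6 libraries, chosen from 13680 genes, and no p is given for them.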

How the data were processed

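Poly(A) RNA of 6 BMDM libraries was sequenced as paired ends after a directional kit. The deposited values are raw counts per gene symbol, made by the authors with tools that the submitters' notes list as fastp 0.20.0, STAR 2.7.1a and HTSeq 0.11.2, on mm10. The annotation and the strand setting of the counting are not given in the sources used here. A gene was tested if it passed edgeR's filterByExpr (minimum count 10, minimum total 15). KO and WT were compared over the whole table with edgeR 4.0.16 (TMM scaling, quasi-likelihood test, genotype alone, Benjamini-Hochberg over 13680 genes), and the biological coefficient of variation was 8.77%. R 4.3.3 and Python were used, and the fit was tested on simulated data. The simulation raised as many genes as it lowered and held no replicate effect. It therefore did not test the choice of scaling or the replicate block on data like these. Both groups carry replicate numbers 1 to 3 in the labels. The deviations of same-numbered libraries from their group means correlated at 0.446, 0.275 and 0.459. Libraries with different numbers were not compared in this way, so these values cannot establish a pairing. The reported fit used genotype alone, and the replicate block is given as an alternative. Alternatives were the replicate block, DESeq2 1.42.0, limma-voom (limma 3.58.1), scaling by RLE or by upper quartiles, a filter asking 10 counts of each library or none, leaving out each library and, added after seeing the data, library totals alone. Replicates of a group differed beyond counting noise (chi-square per degree of freedom 9.32 to 45.5). Gene positions and lengths come from GENCODE M21 (GRCm38). The named genes were the 9 members and, of each pathway list, at most 5 called genes by size, with Rac1; some genes of the lists are counted but not reported here. Ccs, Cybc1, Noxo1, Syk, Rela, Irf8, Spi1 and Txn1 were added once their values had been seen. The members and lists were chosen with earlier results of these data known. Intervals of counts cover counting error only.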

Additional observations from a re-analysis of the deposited data

How the results depend on the processing

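Over 9 members and 19 other named genes, 14 alternatives gave 390 log2 fold changes. Of these, 343 kept their direction and their side of the threshold, 27 lost the call, 14 gained it and 6 changed sign. Members called higher numbered 3 in the analysis reported and 5 with RLE and 5 with DESeq2 (Ncf4 and Rac2 added in both), 6 with the replicate block and 2 with library totals alone, and 3 to 4 without 1 library. Members called lower numbered 2, and 1 to 2 without 1 library. Pathway genes called higher numbered 17, and 20 with DESeq2, 22 with the replicate block, 9 with library totals alone and 13 to 18 without 1 library. Pathway genes called lower numbered 5, and 8 with upper-quartile scaling. They numbered 8 with the replicate block, 18 with library totals alone and 4 to 5 without 1 library. Of all 13680 genes, 2470 were called higher. This count was 2653 with RLE, 2597 with DESeq2, 3343 with the replicate block and 1503 with library totals alone. Lower calls over all genes numbered 2604, and 3356 with upper-quartile scaling, 3615 with the replicate block and 6125 with library totals alone. Without 1 library, 1974 to 2721 genes were called higher and 1873 to 2720 lower, of 13870 to 14169 tested. The log2 fold change turned to -0.073 for Cyba, -0.045 for Ncf4, -0.019 for Rac2, -0.14 for Sod1 and -0.18 for Rac1 with library totals alone. It turned to -0.025 for Rac1 with upper-quartile scaling. With library totals alone Rac1 was also called lower (adjusted p = 0.0344 in edgeR), and it is counted among the changes of sign. The median of all genes moved from -0.024 to -0.24 with library totals alone and to -0.088 with upper-quartile scaling. The difference in the log2 ratio of Cat to Gpx1, 0.045 as reported, ran from -0.084 to 0.14 without 1 library and was -0.020 without KO replicate 3. The ratio differences between same-numbered libraries, as a block, equal the reported ones, with an exact sign-flip p of 0.25 to 0.5, where 0.25 is the smallest possible. Beyond Cyba, Ncf4 and Rac2, the block changed no call among the members. Read depth was high for every member, the lowest count in a library being 3808 (Sod2), and each group held 3 libraries.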
